A study of Zea mays with 4 samples.

Results

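The genes described are the maize lipoxygenases (LOX), the 12-oxo-phytodienoic acid reductases (OPR) and the TIFY family, which includes the JAZ repressors of jasmonate signalling. A gene belonged to the set when it was protein-coding and its NCBI symbol or a synonym was lox, opr, tify or zim followed by a number and at most 1 letter. This gave 41 of 34018 protein-coding genes, namely 12 LOX, 8 OPR and 21 TIFY genes, and each was kept whether detected or not. All 7 genes with a ZIM name also had a TIFY name, and 2 genes had a pair of TIFY names (TIFY2/TIFY3 and TIFY6/TIFY7). Which TIFY genes encode JAZ repressors is not given by the names, except for TIFY13, which also carries the name JAZ9.

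Jasmonates are lipid hormones of wound defence, reproduction and root growth control. Lipoxygenases add oxygen to polyunsaturated fatty acids: 13-lipoxygenases in plastids open the route to jasmonate, while 9-lipoxygenases feed other oxylipins. Allene oxide synthase and cyclase then form 12-oxo-phytodienoic acid, which an OPR enzyme in the peroxisome reduces on the way to jasmonic acid. JAZ proteins, a branch of the TIFY family, hold back MYC2-type transcription factors until the jasmonate-isoleucine conjugate triggers their destruction through the receptor COI1. The family also holds branches without this role.

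The tissue was the outermost 1 mm of root tips, primary and seminal together in every sample, from untreated seedlings of the maize inbred B73 grown for 3 days at 28 C in constant light of about 500 lux. In such bulk tissue, fewer cells of a type and less RNA per cell cannot be told apart. There was 1 group of 4 biological replicates and no second condition, so the only comparisons open are between genes within a library. Libraries were strand-specific and made from RNA without ribosomal RNA, and the library totals ran from 9168397 to 14728175 counts. Levels are given as CPM, counts of a gene per 1000000 counts of the library, with the SD over 4 libraries. The root cap markers RCP1 and RCP2 stood at 201 ± 37.2 and 162 ± 17.7 CPM, and the root hair gene rth3 at 65.6 ± 3.09 CPM, 4.49 times the median gene defined below (edgeR adjusted p = 7.57e-10). The endodermis and quiescent centre gene SCR stood at 15.3 ± 2.13 CPM and the dividing-cell genes pcna2 and orc1 at 199 ± 10.6 and 33.4 ± 4.32 CPM, whereas 1 of 10 leaf photosynthesis markers and 0 of 26 endosperm markers passed the expression filter, with summed levels of 3.60 to 6.22 and 0 to 0.0724 CPM. By the test defined below, RCP1, RCP2 and pcna2 also lay above the median gene, at 13.7, 11.1 and 13.6 times its level. SCR (1.04 times) and orc1 (2.28 times, edgeR adjusted p = 0.0531) did not pass.

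Of the 41 genes, 28 passed the expression filter (edgeR's filterByExpr, minimum count 10), 68.3% against 57.6% of all protein-coding genes. They were 9 of 12 LOX, 7 of 8 OPR and 12 of 21 TIFY genes. Each was set against the median expressed protein-coding gene of the same library, which stood at 14.6 ± 0.678 CPM, and was called above or below it when the ratio exceeded 2-fold at an adjusted p under 0.05 (edgeR quasi-likelihood). By this test 9 lay above, 6 below and 13 did neither. Among all expressed protein-coding genes 26.6% lay above and 25.1% below, so the members' 32.1% above and 21.4% below are near the background and show nothing about the set as a whole. With no expression filter, where the 38 members with at least 1 count were tested, 15 lay above and 13 below. Of the protein-coding genes then tested, 32.0% lay above and 35.1% below. Without the 2-fold bound 15 of the 28 expressed members lay above and 9 below, beside 45.9% and 45.3%. The calls fell on 3 genes above in each family (lox1, lox2 and lox11; opr1, opr2 and opr3; TIFY21, TIFY30 and TIFY12), while 3 LOX, 1 OPR and 2 TIFY genes lay below. Transcript lengths were not used here, so all ratios between genes are ratios of reads and not of molecules, and LOX transcripts are known to be long beside those of OPR and TIFY genes.

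**Figure D1:**
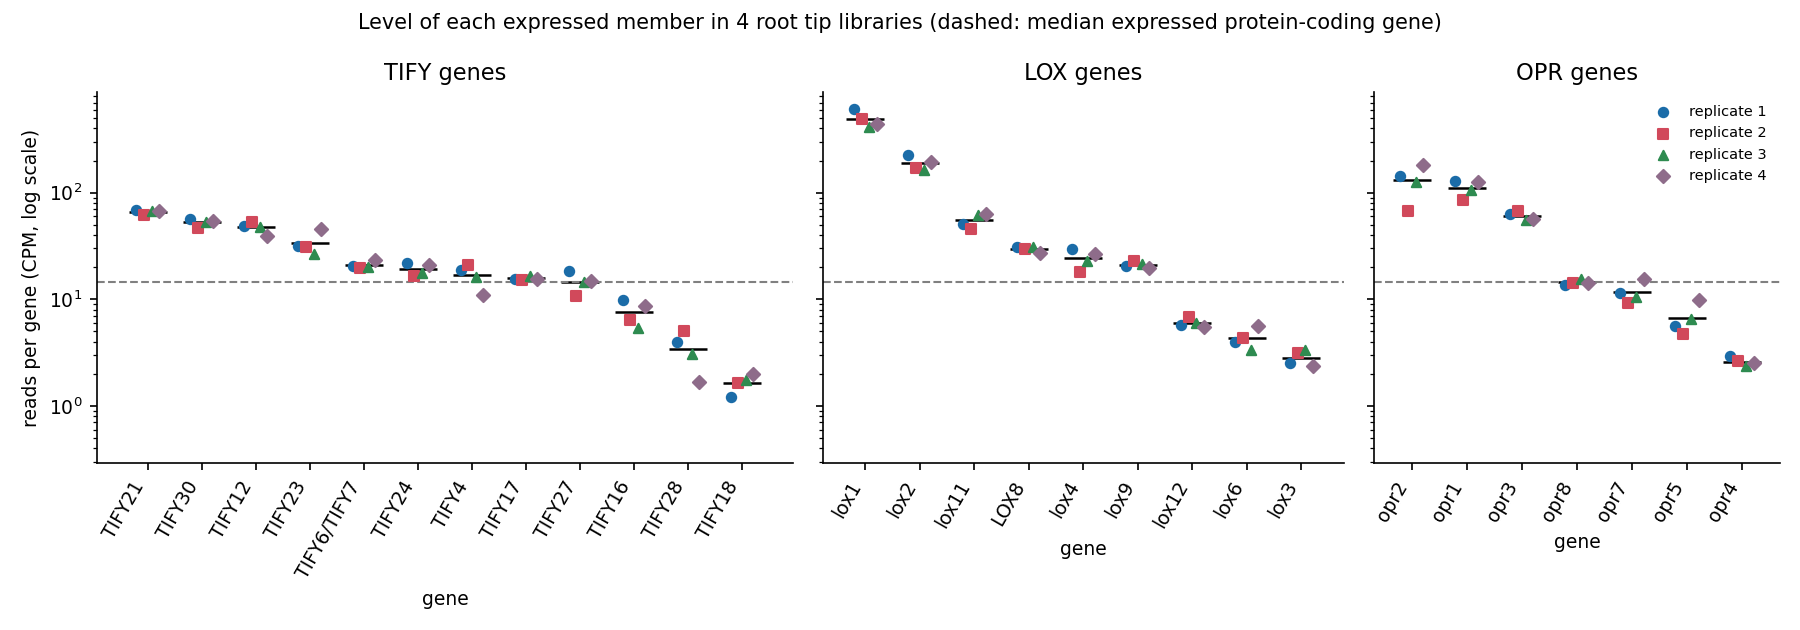
Level of the 28 expressed members in each library (CPM on a log axis), by family. Points are the 4 replicates, the short black bars their mean, and the dashed line the median expressed protein-coding gene at 14.6 CPM; lox1 at 489 CPM is the highest gene and TIFY18 at 1.64 CPM the lowest.

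Lipoxygenase reads came mostly from lox1 and lox2. The gene lox1 (GeneID 541856) encodes an enzyme reported to oxygenate at both positions, and lox2 (GeneID 100037802) is its close relative and next LOX neighbour, with no protein-coding gene between them in the RefSeq gene order. In replicates 1 to 4, lox1 had 610, 491, 416 and 438 CPM. The values of lox2 were 227, 170, 162 and 194 CPM. Both genes were highest in replicate 1 and lowest in replicate 3. Their fitted log2 ratios to the median gene were 5.06 and 3.68 with SDs of 0.26 and 0.19, a 33.5-fold and a 12.8-fold excess (edgeR adjusted p = 1.77e-17 and 7.92e-15).

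Reads of lox1 exceeded those of lox2 in 4 of 4 libraries, by 1.37 ± 0.15 log2 units, or 2.59-fold. An exact two-sided sign-flip permutation test gave p = 0.13, the smallest that 4 libraries allow, and 0.375 adjusted over the 3 paralogue pairs tested. The deposited counts of both genes were 0.5 off a whole number in all 4 libraries, for example 8984.5 and 3337.5 in replicate 1. Of the other members only opr4 had a fractional count, 34.5 in replicate 4. No source used here says how reads shared by similar copies were divided, so the split between lox1 and lox2 is uncertain while their sum is less so. The same limit holds for the other close copies below, such as opr1 and opr2. Together lox1 and lox2 held 82.1 ± 2.66% of LOX reads, with 79.2% to 85.1% in single libraries.

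The other lipoxygenases of the 9-type group were much lower. The gene lox4 (GeneID 100037803), a root-expressed 9-lipoxygenase, had 29.5, 18.0, 23.0 and 26.5 CPM and did not pass the test (log2 ratio 0.73 ± 0.26, edgeR adjusted p = 1.00). In lox12 (GeneID 100037829) the levels were 5.77, 6.76, 6.01 and 5.51 CPM. The gene lox3 (GeneID 542495), a 9-lipoxygenase studied for its part in fungal and nematode infection, had 2.51, 3.16, 3.33 and 2.35 CPM. Replicate values of lox3 and lox12 did not overlap with each other or with lox4. The ratio of lox3 to the median gene was -2.38 ± 0.30 on the log2 scale, 5.20-fold lower (edgeR adjusted p = 8.02e-07). That of lox12 was -1.29 ± 0.19, 2.45-fold lower, and its call was marginal at an edgeR adjusted p of 0.0471. Leaving out replicate 1, 3 or 4 ended the call (edgeR adjusted p of 0.171, 0.153 or 0.217), as did DESeq2 (0.102).

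A near relative of lox4, lox5 (GeneID 100037804), missed the expression filter through replicate 2 alone. Its counts were 25, 5, 26 and 25, and without that library it passed and lay below the median gene (edgeR adjusted p = 4.49e-08). Reads of lox4 exceeded those of lox5 by 4.10 ± 0.58 log2 units, 17.2-fold, in 4 of 4 libraries. The gene next to lox4 in the RefSeq order is lox3, with no coding gene between them, and over all libraries lox4 had 8.88 times as many counts (95% exact counting interval 7.47 to 10.6). Intervals of this kind cover counting error only.

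Among the plastidic 13-lipoxygenases, the entry to jasmonate synthesis, lox11 led. In lox11 (GeneID 100037810) the values were 51.1, 45.5, 61.5 and 63.2 CPM, a log2 ratio of 1.92 ± 0.18 and a 3.78-fold excess over the median gene (edgeR adjusted p = 3.7e-08). Its counterpart lox10 (GeneID 100037809), known for leaf volatile production, had 1 count in replicate 4 and 0 in the other libraries. The pooled counts were thus 2881 for lox11 and 1 for lox10, a ratio of 2881 with a 95% exact counting interval of 517 to 113832. Within this pair nearly every counted read was assigned to lox11. The interval covers counting error only, and how reads shared by these copies were handled is not stated.

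The gene ts1, named LOX8 among its synonyms (GeneID 100037808), is the tasselseed gene whose loss feminizes the tassel. It had 31.1, 29.8, 31.1 and 26.9 CPM. The log2 ratio of 1.02 ± 0.15 lay at the 2-fold bound and did not pass the test (edgeR adjusted p = 1.00). The gene lox9 (GeneID 100037806) had 20.5, 22.7, 21.3 and 19.8 CPM, at 1.44 times the median gene (edgeR adjusted p = 1.00). Both genes varied little, with replicate CVs of 6.68% and 5.83%. For lox7 (GeneID 100037807), a relative of ts1, only 10, 7, 4 and 5 counts were found and the filter was not passed.

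In sum over genes, the 5 genes taken as 13-lipoxygenases held 103, 98.7, 114 and 110 CPM and 13.2 ± 2.20% of LOX reads. Of that sum lox11 supplied 51.7 ± 4.92%, LOX8 27.9 ± 2.76% and lox9 19.9 ± 2.22%. The 9-type genes other than lox1 and lox2 summed to 39.4, 28.5, 34.2 and 36.2 CPM. Apart from that dominant pair, 13-type reads therefore outnumbered 9-type reads in 4 of 4 libraries. With the pair included the order was the reverse in every library, and the 9-type or dual genes held 86.3 ± 2.25% of LOX reads. The assignment to 9 or 13 follows the literature on maize lipoxygenases as background and was not measured here. The gene lox6 (GeneID 100037805), whose enzyme is known to cleave hydroperoxides and not to oxygenate fatty acids, was left out of both sums. It lay below the median gene with 3.94, 4.36, 3.33 and 5.58 CPM, a log2 ratio of -1.78 ± 0.28 (edgeR adjusted p = 0.000126). With no expression filter, which sets a lower median gene, the ratio was -0.93 and the call ended (edgeR adjusted p = 1.00 for lox6 and for lox12, whose call ended too).

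**Figure D2:**
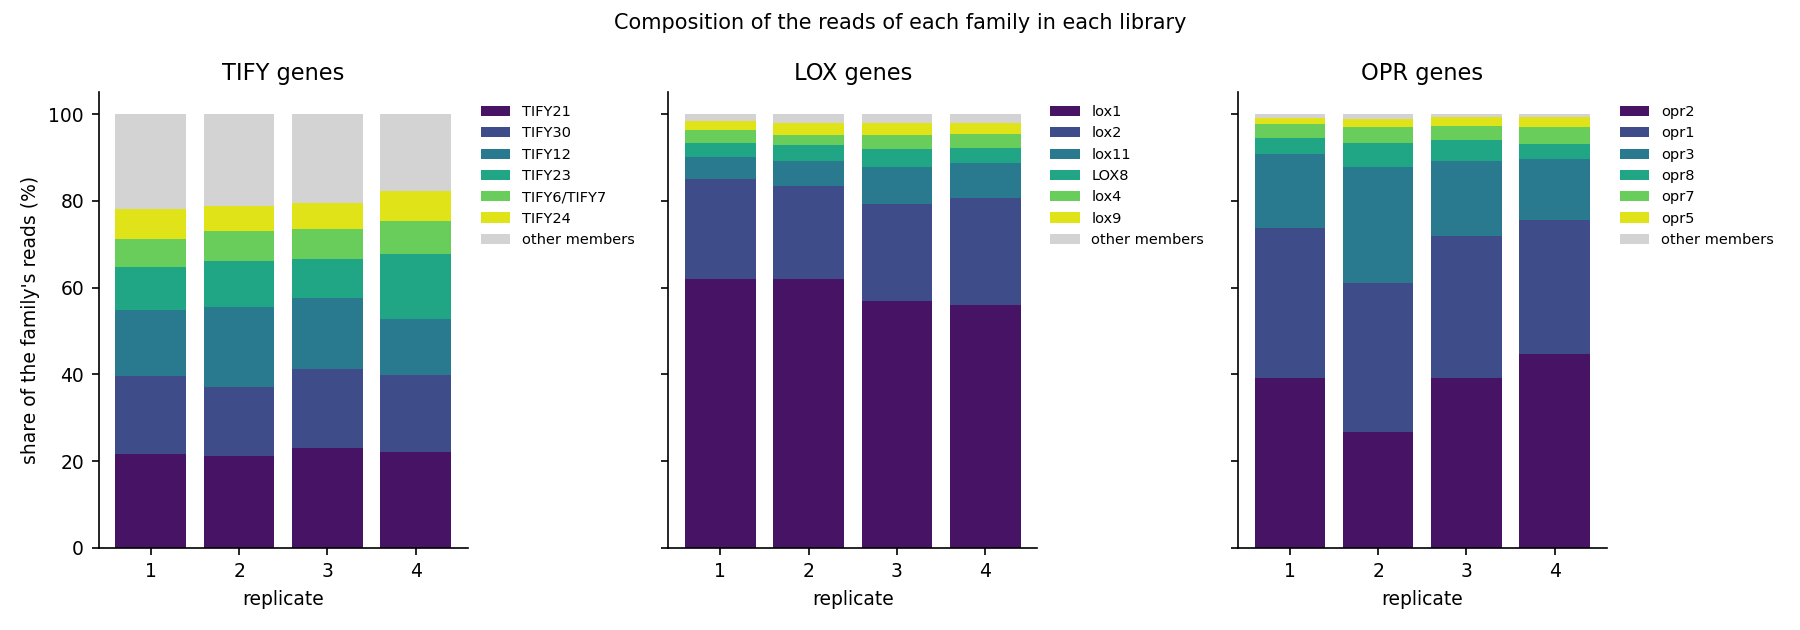
Share of each family's reads taken by its members in each of the 4 libraries (% of the family's counts). The 6 members with the highest mean share are coloured and the rest are grey; lox1 and lox2 fill 79.2% to 85.1% of the LOX bars, and opr1, opr2 and opr3 fill 87.7% to 90.9% of the OPR bars.

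The OPR family split into 3 genes far above the median gene and the remaining genes near or below it. The reductases opr1 and opr2 belong to the subfamily that is not thought to serve jasmonate synthesis, and 1 coding gene lies between them in the RefSeq order. In opr2 (GeneID 732822) the levels were 144, 67.2, 127 and 180 CPM. For opr1 (GeneID 732815) they were 128, 86.2, 106 and 125 CPM. Replicate 2 was the lowest for both and replicate 4 the highest for opr2. The log2 ratios to the median gene were 3.13 ± 0.55 for opr2 and 2.92 ± 0.21 for opr1, 8.77-fold and 7.58-fold higher (edgeR adjusted p = 1.19e-10 and 1.87e-12).

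The order of opr1 and opr2 was not stable across libraries. Per library the log2 ratio of opr1 over opr2 was -0.17, 0.36, -0.26 and -0.53, with a mean of -0.15 ± 0.37, and opr1 was the higher gene in 1 of 4 libraries. The exact two-sided sign-flip permutation test gave p = 0.5 (adjusted 0.5 over 3 pairs), so a difference between them was not detectable. The gene opr3 (GeneID 732731) was steadier, at 62.9, 66.9, 55.7 and 57.0 CPM and a log2 ratio of 2.05 ± 0.17 (edgeR adjusted p = 6.05e-09). Together opr1, opr2 and opr3 held 89.3 ± 1.30% of OPR reads. The share of opr2 alone ran from 26.8% in replicate 2 to 44.6% in replicate 4.

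The peroxisomal reductases opr7 and opr8, which maize needs for jasmonic acid, stood near the median gene. In opr7 (GeneID 732830) the values were 11.5, 9.16, 10.6 and 15.5 CPM, a log2 ratio of -0.32 ± 0.25. In opr8 (GeneID 732734) they were 13.5, 14.3, 15.6 and 14.1 CPM, a log2 ratio of -0.03 ± 0.12. Neither passed the test (edgeR adjusted p = 1.00 for both), and together they held 7.89 ± 1.11% of OPR reads. The ratio of opr7 over opr8 was -0.23, -0.64, -0.55 and 0.14 on the log2 scale, a mean of -0.32 ± 0.35, with opr7 lower in all libraries but replicate 4 (exact two-sided sign-flip permutation test, p = 0.25, adjusted 0.375).

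Of the remaining OPR genes, opr5 (GeneID 732829) had 5.57, 4.69, 6.52 and 9.91 CPM. Its log2 ratio of -1.13 ± 0.40 did not pass over all 4 libraries (edgeR adjusted p = 0.634) and passed without replicate 4 (0.0477), the library in which it was highest. The gene opr4 (GeneID 732732) lay below with 2.92, 2.62, 2.39 and 2.53 CPM and a log2 ratio of -2.49 ± 0.15 (edgeR adjusted p = 1.34e-07). No count of opr6 (GeneID 732733) was found in any library, which at 3 counts over the 4 libraries allows up to 0.0584 CPM.

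**Figure D3:**
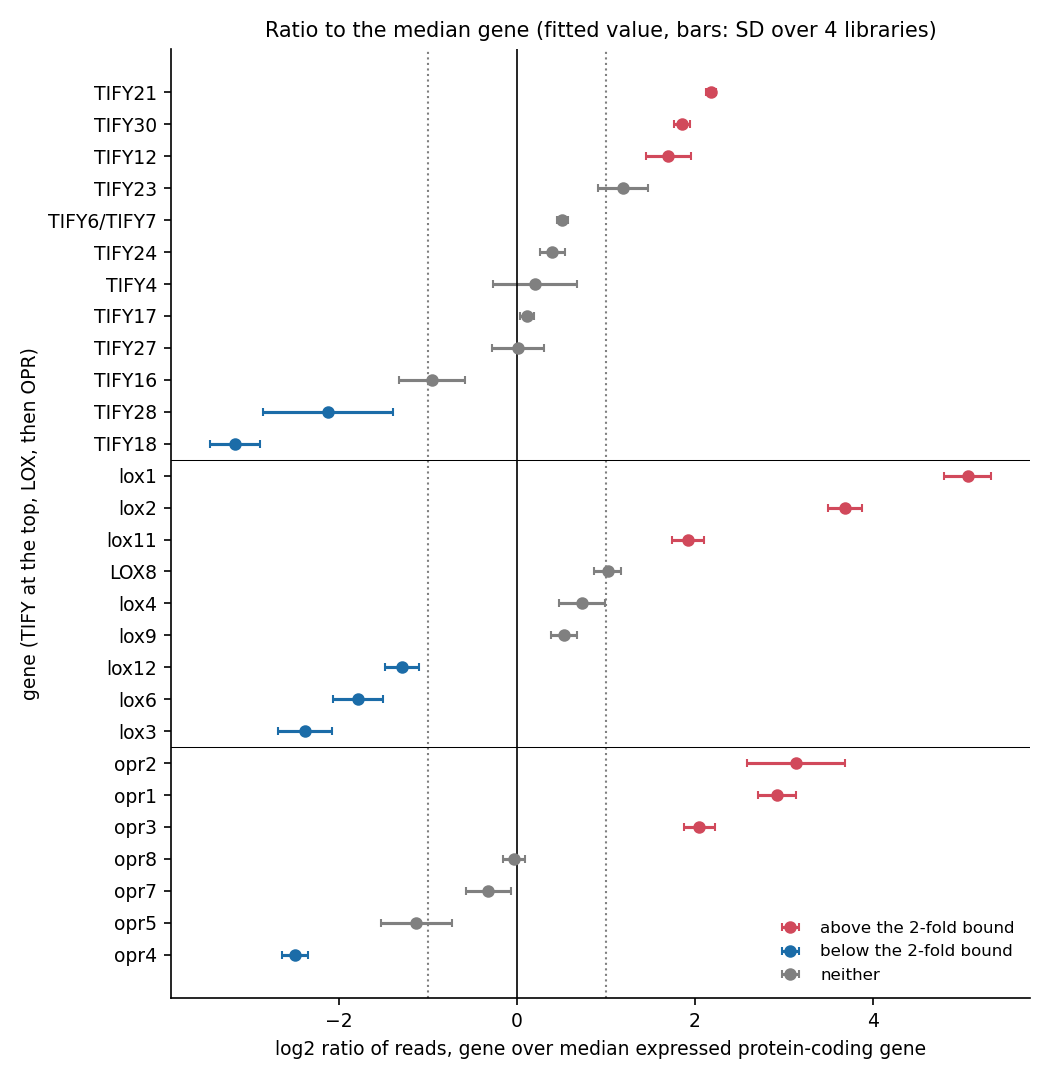
Fitted log2 ratio of each expressed member to the median expressed protein-coding gene, with bars for the SD over 4 libraries and dotted lines at the 2-fold bounds. Red points passed above, blue points passed below and grey points did neither; the values run from 5.06 for lox1 to -3.16 for TIFY18.

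Reads of the TIFY family were spread over more genes than those of the LOX family, and TIFY21 led with 22.0 ± 0.835% of them. TIFY21 (LOC100277669, GeneID 100277669) had 69.4, 61.1, 67.6 and 67.6 CPM. TIFY30 (GeneID 100383759) had 57.2, 46.4, 53.1 and 53.8 CPM. TIFY12 (GeneID 100384736) had 49.0, 53.4, 47.9 and 39.4 CPM. The replicates of TIFY21 lay above those of TIFY30 and TIFY12 throughout, while the values of TIFY30 and TIFY12 overlapped. Their log2 ratios to the median gene were 2.18 ± 0.06, 1.85 ± 0.09 and 1.70 ± 0.25 (edgeR adjusted p = 3.32e-10, 3.35e-08 and 3.24e-06). These 3 genes held 55.2 ± 1.98% of TIFY reads.

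TIFY23 (GeneID 100282175) was next with 31.4, 30.8, 26.8 and 45.5 CPM. It was 2.29 times the median gene without passing (edgeR adjusted p = 0.119), and passed without replicate 3 (0.0303). Replicate 4 stood highest and replicate 3 lowest, a 1.70-fold span.

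A middle group of 6 TIFY genes lay between 0.519 and 1.43 times the median gene, with none called (edgeR adjusted p = 1.00 for each). TIFY6/TIFY7 (GeneID 100276585) had 20.6, 19.7, 20.0 and 23.3 CPM. TIFY24 (GeneID 100273108) had 21.9, 16.7, 17.7 and 21.0 CPM. TIFY17 (GeneID 100285509) had 15.6, 15.1, 16.7 and 15.6 CPM. TIFY17 was the steadiest of all 28 expressed members, with a CV of 4.23%, below the 7.02% that counting alone gives on average. TIFY4 (GeneID 100283151) had 18.9, 21.1, 16.1 and 10.9 CPM. TIFY27 (GeneID 100276383) had 18.5, 10.7, 14.6 and 14.7 CPM. TIFY16 (GeneID 100282471) had 9.85, 6.33, 5.36 and 8.74 CPM. Of these, TIFY4 was lowest in replicate 4, TIFY27 in replicate 2 and TIFY16 in replicate 3, so no one library was low for all.

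Both TIFY genes called below the median gene had few counts. TIFY28 (GeneID 100284433) had 59, 46, 42 and 23 counts, or 4.01, 5.02, 3.04 and 1.69 CPM, a log2 ratio of -2.12 ± 0.73 (edgeR adjusted p = 0.000177). With no expression filter its ratio was -1.27 and the call ended (edgeR adjusted p = 0.164). TIFY18 (GeneID 100281895) had 18, 15, 24 and 27 counts, or 1.22, 1.64, 1.74 and 1.98 CPM, a log2 ratio of -3.16 ± 0.28 (edgeR adjusted p = 8.58e-09). Replicate 4 was the lowest library for TIFY28 and the highest for TIFY18.

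The other 9 TIFY genes did not pass the filter. TIFY2/TIFY3 (GeneID 100281912) had 16, 9, 19 and 1 counts, and without replicate 4 it passed and lay below the median gene (edgeR adjusted p = 4.15e-09). TIFY1, TIFY15, TIFY25, TIFY20, TIFY13 and TIFY10 had 9, 8, 8, 6, 5 and 1 counts in total. TIFY9 and TIFY29 had 0, for which the 95% exact Poisson interval reaches 0.0719 CPM each. For the gene named JAZ9 (TIFY13), 5 counts correspond to 0.0974 CPM with a 95% exact Poisson interval of 0.0316 to 0.227.

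Some TIFY genes adjoin each other in the RefSeq order of coding genes and differed in their counts. TIFY1, TIFY2/TIFY3 and TIFY4 form a run in that order with no other coding gene between them, and their total counts were 9, 45 and 844. Reads of TIFY4 were 18.8 times those of TIFY2/TIFY3 (95% exact counting interval 13.9 to 25.9). TIFY28, with 170 counts, is next to TIFY29, which had 0. Against an assumed floor of 3 counts over the 4 libraries, reads of TIFY28 were 56.7-fold higher. This value has no interval for counting error and is not a lower limit. TIFY10 and TIFY9 are neighbours as well, with 1 and 0 counts. The ratios and zero counts of these neighbours are of assigned reads, and how reads shared by similar copies were handled is not stated. All 3 of the run and TIFY28 had their lowest level in replicate 4. So did 7 of the 28 expressed members, TIFY4 and TIFY28 among them, and 17.5% of all expressed protein-coding genes. TIFY1 and TIFY2/TIFY3 did not pass the filter, and the 9 counts of TIFY1 are too few to rank libraries. A trait shared by these neighbours cannot be read from this.

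Within each family, adjacent genes in order of level were often not separable. A step was taken as beyond the spread when the higher gene led in 4 of 4 libraries by more than 1 SD of the log2 ratio. This held for 4 of 8 steps among LOX genes, 4 of 6 among OPR genes and 4 of 11 among TIFY genes. The order came from the mean CPM of these same libraries, so the rule is a description and not a test. Steps beyond the spread in LOX were from lox1 to lox2, lox2 to lox11, lox11 to LOX8 and lox9 to lox12. In OPR they were from opr1 to opr3, opr3 to opr8, opr7 to opr5 and opr5 to opr4, while opr2 and opr1, and opr8 and opr7, were not separated. Those in TIFY were from TIFY21 to TIFY30, TIFY23 to TIFY6/TIFY7, TIFY27 to TIFY16 and TIFY16 to TIFY28.

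The median log2 ratio over expressed members was 0.79 ± 0.15 for LOX, 0.01 ± 0.10 for OPR and 0.32 ± 0.10 for TIFY, against -0.08 over all genes tested. The value of -0.08 includes genes that are not protein-coding, whereas every member is protein-coding and is set against the median protein-coding gene. It is therefore not a like-for-like background. The family medians cover only genes that passed the filter and carry no test. Summed over all members, LOX genes held 822 ± 111 CPM, OPR genes 337 ± 65.8 CPM and TIFY genes 302 ± 13.8 CPM.

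Spread between replicates differed widely among members. The CV of the 28 expressed members ran from 4.23% to 41.3% with a median of 16.1%, against 13.2% over all expressed protein-coding genes, and 16 of 28 lay above that value. The highest were TIFY28 at 41.3%, opr2 at 36.3% and opr5 at 34.3%, where counting alone would give about 15.3%, 2.40% and 10.7%. Of the 28 members, 11 were highest in replicate 1 and 8 in replicate 4, while 12 were lowest in replicate 2. Among all expressed protein-coding genes replicate 4 was most often the highest, in 38.3%, against 23.3% for replicate 1. Replicate 2 was most often the lowest, in 41.7%, and the members' count there is near that share. The difference in the highest library was not tested. Replicate 2 is also the shallowest library. Its part in the low values of opr1, opr2, opr5 and opr7 there was not tested. Without that library opr1 and opr2 still lay above the median gene.

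**Figure D4:**
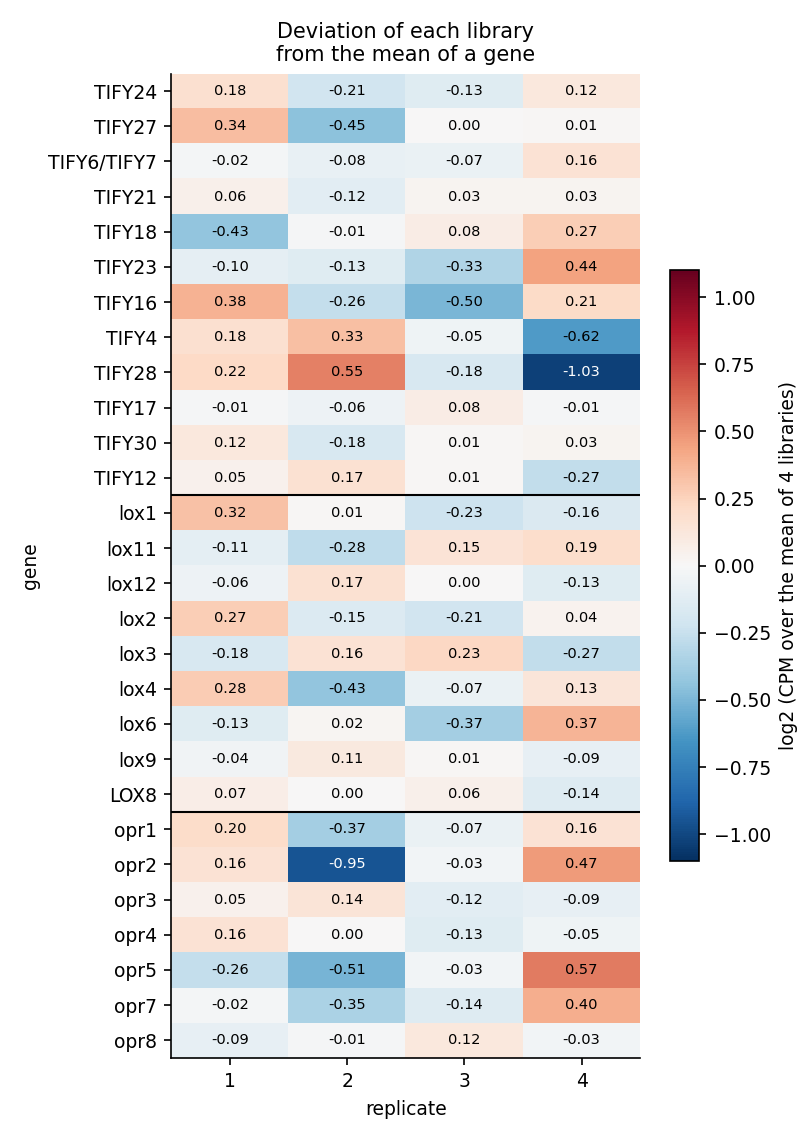
Deviation of each library from a gene's mean level, as log2 of CPM over the mean of 4 libraries, for the 28 expressed members in family order. The deepest blue cells are TIFY28 in replicate 4 at -1.03 and opr2 in replicate 2 at -0.95, and the row of TIFY17 is nearly white.

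Other genes of the pathway, taken by symbol and leaving out the members above, numbered 16. A match whose symbol showed another meaning was left out by rule. All 16 passed the filter, beside 57.6% of all protein-coding genes, a difference that was not tested. Of these 16 genes, 5 lay above the median gene, 4 below and 7 did neither. These shares are near the 26.6% above and 25.1% below among all expressed protein-coding genes. The steps between lipoxygenase and OPR were well represented: the allene oxide synthase gene aos1 had 196, 159, 183 and 202 CPM, and the cyclase gene aoc1 had 71.6, 92.7, 80.4 and 95.1 CPM. Their log2 ratios were 3.66 ± 0.10 and 2.54 ± 0.20 (edgeR adjusted p = 2.42e-15 and 4.91e-11). The cyclase gene aoc2 stood at 22.5 ± 4.54 CPM without passing, and aos2, aos3 and aos4 lay below at 3.44 ± 0.427, 3.46 ± 0.384 and 3.79 ± 0.855 CPM (edgeR adjusted p = 2.88e-06, 2.82e-06 and 1.82e-05). With no expression filter these 3 calls ended (edgeR adjusted p = 0.139, 0.153 and 0.694). Counts in replicates 2 to 4 were fractional for aos3 (30.5, 53.5 and 49.5) and for aos4 (24.5, 51.5 and 64.5). The split of reads between aos3 and aos4 is therefore uncertain, as for lox1 and lox2.

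Fatty acid desaturases supply the unsaturated substrates of lipoxygenases. FAD2 LOC100191328, of the class that forms linoleic acid, was the highest pathway gene at 732 ± 55.0 CPM (log2 ratio 5.64 ± 0.05, edgeR adjusted p = 1.51e-19). The other gene with that name, fad2 LOC100282744, stood at 7.10 ± 0.516 CPM without passing. The plastid desaturase genes fad6, fad7 and fad8 had 11.2 ± 1.28, 30.8 ± 2.57 and 10.4 ± 1.79 CPM, and none passed (edgeR adjusted p = 1.00, 0.573 and 1.00). HPL, a hydroperoxide lyase gene of the branch that competes for lipoxygenase products, lay above at 40.2 ± 4.15 CPM (log2 ratio 1.46 ± 0.21, edgeR adjusted p = 0.000173).

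On the signalling side, rel2, a TOPLESS-type corepressor gene of the kind that JAZ proteins recruit in Arabidopsis, lay above at 148 ± 21.9 CPM (log2 ratio 3.34 ± 0.19, edgeR adjusted p = 7.27e-14). The transcription factor gene MYC2a had 32.3, 23.3, 31.0 and 24.8 CPM, 1.91 times the median gene, and did not pass (edgeR adjusted p = 1.00). Of the wound-response genes, wip1 lay below at 1.85 ± 0.473 CPM (log2 ratio -2.96 ± 0.36, edgeR adjusted p = 3.75e-08). The proteinase inhibitor gene MPI had 5.70, 7.74, 10.7 and 14.8 CPM, a CV of 40.4%, and did not pass (edgeR adjusted p = 1.00). No gene matched the names of the JAR conjugating enzymes, COI receptors or beta-oxidation enzymes in the symbol search, so those steps were not analysed here.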

How the data were processed

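RNA-seq of 4 root tip libraries was analysed from the estimated counts per NCBI GeneID that the authors deposited, which carry no normalization. The tools listed per the submitters' processing notes are HTSeq, UMI-tools, STAR 2.7.10b, Trimmomatic (0.36 and 0.39), deepTools and SAMtools. No source used here gives the settings, the build, the strandedness of counting or whether molecular tags were collapsed. Fractional values occurred in 3062 of 48174 genes (tolerance 1e-06), and counts were rounded before testing. A further table has 5 columns that match no sample and was not used. Names came from the RefSeq table of Zm-B73-REFERENCE-NAM-5.0, which holds 48127 of the 48174 GeneIDs; it also gave the order of genes along chromosomes, while no sequence or transcript length was used and no coordinate is printed.

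CPM were computed from library totals. For the test, genes passing edgeR's filterByExpr (minimum count 10, minimum total 15) entered an intercept-only quasi-likelihood model (edgeR 4.0.16, R 4.3.3) with each library's median gene (expressed, protein-coding) as offset. The F statistic was formed at the nearer 2-fold bound, with Benjamini-Hochberg adjustment over all 21039 genes at 0.05. SDs of log2 ratios use a pseudocount of 0.5 counts. On simulated counts for this comparison (21039 genes fitted, 40 genes at each ratio), all 40 were called at each true ratio of 0.25, 3 and 4. At ratios of 1 and 1.5, 0 were called, where a fitted value inside the bounds cannot be called by construction. The simulated counts had the trended dispersion without gene-specific spread, and no ratio between 1.5 and 3 was simulated. They therefore do not cover marginal calls or members with a wide spread. Paralogue pairs, chosen from knowledge of the families, were tested with an exact sign-flip permutation test when both genes passed the filter. DESeq2 1.42.0 and limma 3.58.1 served as alternatives.

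The members and lists were chosen with earlier results of these data known. Every member is accounted for, and expressed members are given in every library. The labels name biological replicates without saying how cultures were separated, so p-values measure the spread between these samples. Library pairs differed by more than counting noise (chi-square of 6.99 to 19.7 per degree of freedom over genes), so none was a repeat deposit.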

Additional observations from a re-analysis of the deposited data

Results flagged for a closer look

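Of the 44 member and pathway genes checked for a library far from the other 3, the plastid desaturase gene fad8 was the only one, and it is not a LOX, OPR or TIFY gene. It had 7.75 CPM in replicate 3, against 11.1, 11.7 and 11.0 CPM in replicates 1, 2 and 4. The gap to the nearest other library was 0.832 of the whole range, just over the 95% critical value of Dixon's test. Chance alone flags about 1 in 20 groups.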

How the results depend on the processing

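The same 9 members lay above the median gene with TMM scaling, DESeq2 size factors, a minimum of 1 CPM, DESeq2 and limma, and the count was 9 to 10 when 1 replicate was left out. The count below was 5 to 7 with 1 replicate left out and 5 with DESeq2. Without the 2-fold threshold 15 of 28 members lay above and 9 below, beside 45.9% and 45.3% of all protein-coding genes tested. With no filter on low counts 15 of 38 members were above and 13 below, beside 32.0% and 35.1% of protein-coding genes. Of those 13, 10 are low-count members tested only there and 3 (TIFY18, lox3 and opr4) were below before, while TIFY28, lox12 and lox6 lost the call against a lower median gene. With means over members in place of medians, the TIFY value was 0.14 and the OPR value 0.57 on the log2 scale. Genes near the median gene changed sign: TIFY27 (main value 0.01) stood at -0.06 with a minimum of 1 CPM, -0.12 without replicate 1, -0.01 with DESeq2 and -0.03 with limma; opr8 stood at 0.01 without replicate 1, 0.02 without replicate 4 and 0.82 without the filter; opr7 stood at 0.53 and the pathway genes fad6, fad8 and MPI at 0.46, 0.35 and 0.26 without the filter. The number of members passing the filter was 28 to 29 with 1 replicate left out and 38 where 1 count sufficed. No alternative with or without a length correction was run, because no coding lengths were used here. No paired analysis was possible because the 4 libraries form a single group. The lowest totals, 9168397 counts in replicate 2, limit detection there to 0.327 CPM at 3 counts.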
